A study of Homo sapiens with 12 samples.

Results

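The 50 genes described here encode the mitotic spindle and the machinery of the G2-to-M transition: mitotic kinases, cyclins and their partners, spindle checkpoint and anaphase proteins, the centromere and kinetochore, kinesin motors, microtubule-binding spindle proteins, the chromosomal passenger complex and cytokinesis, and FOXM1 with TOP2A and MKI67. They were taken by gene name from an expression array, and all 50 had at least 1 probe that was detected, among 19089 genes tested. The array held 75 probes for them, of which 73 were tested, and each gene is given by its brightest tested probe. For 49 of the 50 genes that probe was detected on all 12 arrays.

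A cell that enters mitosis activates CDK1 through cyclin A and cyclin B, builds a bipolar spindle with the help of Aurora and Polo-like kinases and kinesins, and holds anaphase back until the checkpoint finds every kinetochore attached. Most of the genes for this machinery are transcribed late in the cell cycle, under B-MYB, the MuvB proteins and FOXM1, and their RNA level in a culture is widely read as a measure of proliferation, in pancreatic carcinoma as elsewhere.

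Focal adhesion kinase (FAK), the product of PTK2, relays signals from integrins bound to the extracellular matrix. In the study it was knocked down in MIA PaCa-2 and Capan-1, established human pancreatic carcinoma cell lines. Each line carried a doxycycline-inducible vector (PLKO.1 tet-on) with a control hairpin (shCtrl) or with either of the FAK hairpins sh1209 and sh1319, which makes 6 groups of 2 arrays. All groups, controls included, were kept in doxycycline at 50 ng/ml, for 96 hours, and the puromycin concentration was 3.5 µg/ml for MIA PaCa-2 and 1.5 µg/ml for Capan-1. The labels call the second hairpin of Capan-1 shFAK1319, taken here as sh1319. Whether the transduced cells were a pool or a single clone, and whether the arrays within each group are separate cultures, is not given in the sources used here, so the p-values below measure only the spread between these arrays.

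On the brightest PTK2 probe the level, a normalized log2 intensity, was 9.45 and 9.46 with shCtrl, 7.28 and 7.14 with sh1209 and 6.92 and 7.03 with sh1319 in MIA PaCa-2. In Capan-1 it was 10.35 and 10.17 with shCtrl, 9.66 and 9.63 with sh1209 and 8.48 and 8.49 with sh1319. PTK2 thus fell with each hairpin, with log2 changes of -2.24 and -2.48 in MIA PaCa-2 against -0.61 and -1.78 in Capan-1 (limma adjusted p from 5.2e-08 to 0.0036). Under median scaling, described below, the change with sh1209 in Capan-1 was -0.42 and did not pass the test (limma adjusted p = 0.23). In Capan-1 the difference of sh1319 from sh1209 was -1.16 (limma adjusted p = 6.2e-05), and in MIA PaCa-2 it was -0.24 and did not pass the test (adjusted p = 0.17). A second, dim PTK2 probe at levels of 4.54 to 6.03 passed the test in none of the 4 pairs of a hairpin with its control. The arrays detected 16259 to 19814 of 47228 probes, and the 2 arrays of a group correlated at 0.991 to 0.994. With shCtrl, KRT19, EPCAM (listed as TACSTD1), CDH1, MUC1 and CEACAM6 were bright in Capan-1. EPCAM, CDH1 and CEACAM6 were not detected in MIA PaCa-2, where VIM was at 13.21 against 5.66 in Capan-1. Among 9 epithelial markers tested in these controls, Capan-1 was called higher for 7 and lower for 0, and 2 were not called. Among 4 mesenchymal markers, it was called lower for VIM (-7.55) and higher for 1 other (1.43), and 2 were not called. Of markers of other cell types, 3 of 6 leukocyte and 2 of 4 endothelial genes had a tested probe, and PTPRC, CD3E, CDH5 and KDR were among those without one. The summed linear intensity of the tested leukocyte markers, CD68, CD14 and LYZ, ran from 4793 to 5266 with shCtrl, 2491 to 2514 with sh1209 and 3414 to 3858 with sh1319 in Capan-1, where LYZ was bright. In MIA PaCa-2 it ran from 261 to 278, 423 to 468 and 266 to 275, with LYZ not detected. LYZ fell with both hairpins in Capan-1 (-1.29 and -0.56), and the part of these levels in the results on mitotic genes was not tested.

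Many genes of this class share a promoter arrangement, and a few promoters are shown because they place genes with different responses side by side. RefSeq promoters on GRCh38.p14, from 250 bases before to 50 bases after the start, were matched for 43 of the 50 genes, as 52 promoters; AURKA, BIRC5, FOXM1, RACGAP1, TPX2, TTK and UBE2C had no entry. The 100 bases before the start are printed 5′ to 3′ on the strand of the gene, with TTTGAA (the core of the cell cycle homology region, CHR) and CCAAT (the NF-Y box) in capitals, read on either strand as TTTGAA or TTCAAA and as CCAAT or ATTGG. The windows were chosen after the matches were seen.
CKS1B, chr1:154974581-154974680, plus strand: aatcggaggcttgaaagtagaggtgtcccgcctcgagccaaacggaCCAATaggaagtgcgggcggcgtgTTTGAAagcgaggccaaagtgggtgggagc
CKS2, chr9:89311095-89311194, plus strand: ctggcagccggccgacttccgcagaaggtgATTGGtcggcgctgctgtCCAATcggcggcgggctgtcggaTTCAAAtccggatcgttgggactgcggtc
HMMR, chr5:163460532-163460631, plus strand: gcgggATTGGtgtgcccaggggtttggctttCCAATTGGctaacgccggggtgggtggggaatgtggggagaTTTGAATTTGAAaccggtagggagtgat
KIF4A, chrX:70290004-70290103, plus strand: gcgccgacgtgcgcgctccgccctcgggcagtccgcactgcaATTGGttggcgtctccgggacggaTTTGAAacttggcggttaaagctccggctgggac
KIF11, chr10:92593030-92593129, plus strand: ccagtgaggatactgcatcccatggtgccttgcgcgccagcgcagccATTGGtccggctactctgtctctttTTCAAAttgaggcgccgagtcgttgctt
PLK1, chr16:23678789-23678888, plus strand: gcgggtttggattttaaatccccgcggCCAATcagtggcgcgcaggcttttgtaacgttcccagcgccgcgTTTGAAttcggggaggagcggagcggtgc
CCNB2, chr15:59105046-59105145, plus strand: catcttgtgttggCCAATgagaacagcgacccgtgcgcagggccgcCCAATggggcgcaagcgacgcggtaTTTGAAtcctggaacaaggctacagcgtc
PRC1, chr15:90994536-90994635, minus strand: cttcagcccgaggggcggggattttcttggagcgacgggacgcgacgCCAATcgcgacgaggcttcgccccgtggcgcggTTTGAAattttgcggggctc
CCNB1, chr5:69167050-69167149, plus strand: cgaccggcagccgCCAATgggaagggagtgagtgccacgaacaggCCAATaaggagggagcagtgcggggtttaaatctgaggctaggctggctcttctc
In the first 8 of these windows TTTGAA began 20 to 34 bases before the start. CCAAT began 53 to 58 bases before it in KIF11, KIF4A, CKS1B, CCNB2 and PRC1, and CCNB1, the last window, had a pair of CCAAT boxes and no TTTGAA in its whole promoter entry. CKS1B, which was lower with every hairpin, and PRC1, which was not, carried the same pair of strings.

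TTTGAA was found in 33 of the 52 promoters (63.5%), against 15.2% of all 35116 promoters and 7.41% of 54 promoters of a list of DNA replication and S phase genes. CCAAT was found in 39 (75.0%), against 34.6% of all promoters and 57.4% of the S phase promoters. TTTGAA within 40 bases and CCAAT within 100 bases before the start occurred together in 13 promoters (25%), in 0.356% of all promoters and in none of the S phase promoters. The string TTTCCCGC or TTTGGCGC, typical of E2F sites, was found in 2 promoters (3.85%), against 2.27% of all promoters and 33.3% of the S phase promoters. These shares describe letters and not bound sites. For the mean of the 4 pairs, the median log2 change was -0.19 for the 31 genes with TTTGAA and -0.18 for the 12 without. It was -0.27 for the 13 with both strings close to the start. With sh1319 the medians with and without TTTGAA were -0.15 and -0.30 for MIA PaCa-2, against -0.29 and -0.47 for Capan-1, where 9 of the 31 and 6 of the 12 were called lower. These differences were not tested, and the change was not split by CCAAT alone or by the E2F strings.

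Averaged over both hairpins and both lines, mitotic genes were mostly lower than with the control hairpin, by small amounts. The largest falls were in CKS1B, a small CDK-binding subunit that also takes part in the degradation of the CDK inhibitor p27 (log2 change -0.79 ± 0.07 SE), FOXM1, the transcription factor of the G2/M programme (-0.70 ± 0.09), MAD2L1, which encodes the checkpoint protein MAD2 (-0.68 ± 0.09), HMMR, a hyaluronan receptor that also binds spindle microtubules (-0.63 ± 0.08), NUF2 of the outer kinetochore (-0.51 ± 0.06), and the kinases AURKB (-0.51 ± 0.08) and AURKA (-0.50 ± 0.07). ASPM, a spindle pole protein, rose (0.38 ± 0.08), as did PRC1, which bundles antiparallel microtubules of the central spindle (0.27 ± 0.08). In all, 22 of the 50 genes were lower and 2 higher at an adjusted p under 0.05 in limma (12 arrays), where 12.6% of all genes were called lower and 13.0% higher, and the median change was -0.22 against 0.00 over all genes. Changes below 0 were seen in 47 of the 50, and in 32 under the median scaling described next. The average joins unlike hairpins. In MIA PaCa-2 PTK2 changed by -2.24 with sh1209 and -2.48 with sh1319, while the median of the 50 genes was 0.08 and -0.22. FOXM1 was at 0.18 and -1.94 there, and AURKA at -0.01 and -0.99. Why the hairpins differed was not tested. In bulk RNA a smaller number of dividing cells and less of these transcripts in each cell cannot be told apart.

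The size of this average depended on how the arrays were scaled. With each array set to a common median in place of quantile normalization, 7 genes were called: CKS1B, MAD2L1, HMMR, FOXM1 and AURKA lower (log2 changes from -0.76 to -0.39) and ASPM and PRC1 higher (0.55 and 0.38), where 3.86% of all genes were called lower and 14.3% higher. The median change was then -0.08 against 0.07 over all genes, and none of the 24 genes called under quantile normalization changed direction. Whichever 1 array was left out, 13 of the 24 calls held, namely those of ASPM, AURKA, AURKB, CDCA8, CENPA, CKS1B, FOXM1, GTSE1, HJURP, HMMR, MAD2L1, NUF2 and SPC25. Each of the other 11 was lost without 1 or more of the control arrays (adjusted p up to 0.10), KIF4A also without sh1319 replicate 1 of Capan-1, and UBE2C also without sh1319 replicate 1 of MIA PaCa-2 or sh1209 replicate 2 of Capan-1. The 2 arrays of a group were also averaged first, so that the spread between hairpins and the difference in response between the lines made up the error. In that fit limma called none after adjustment, and the unadjusted p was under 0.05 for 7 of the 50 genes and for 7.69% of all genes.

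**Figure D1:**
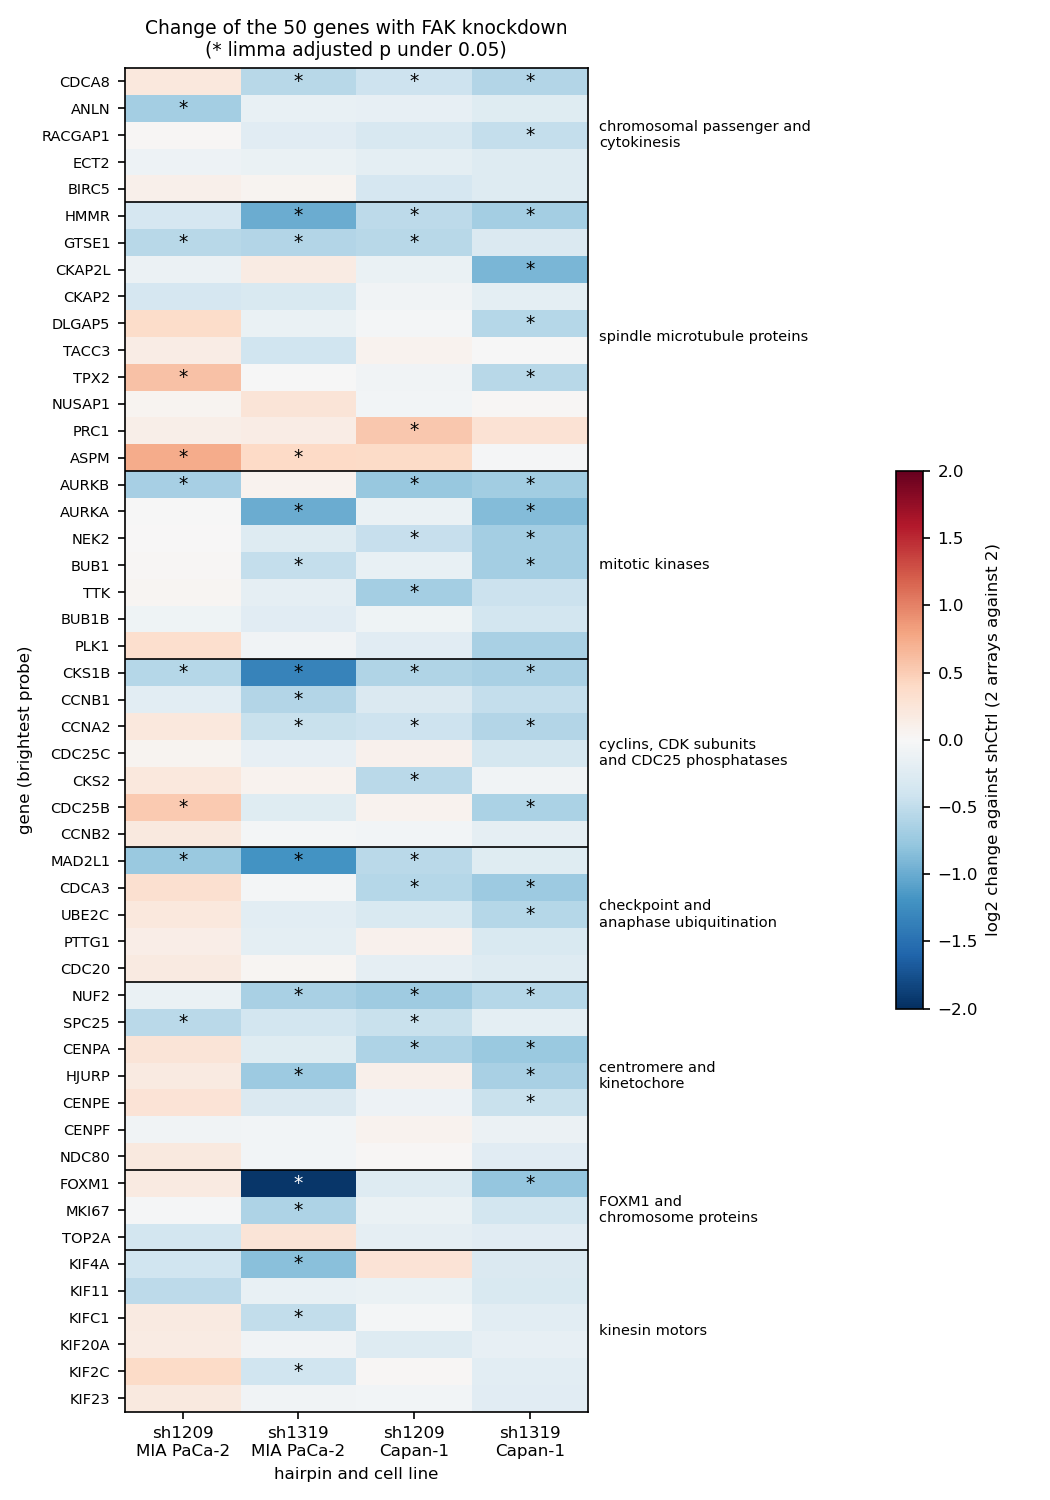
Log2 change of each of the 50 genes against shCtrl in the 4 pairs of hairpin and cell line, in colour, with the genes grouped by role and ordered within a role by their mean change. Asterisks mark limma adjusted p under 0.05, and the column of sh1319 in Capan-1 holds 20 of them, all on falls.

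Set against its own control, each hairpin in each line gave a different picture. With sh1209 in MIA PaCa-2, 3 genes rose and 6 fell, where 9.37% of all genes rose and 8.92% fell (18.3% in all), and the median change was 0.08 against 0.01 over all genes. With sh1319 in that line 1 rose and 16 fell, where 12.5% of all genes rose and 12.2% fell (24.7% in all), and the median was -0.22 against -0.01. In Capan-1 with sh1209, 1 rose and 14 fell, where 8.54% of all genes rose and 8.74% fell (17.3% in all), and the median was -0.16 against 0.00. With sh1319 there, none rose and 20 fell, where 7.41% of all genes rose and 6.86% fell (14.3% in all), and the median was -0.36 against 0.00. The share called lower stood only slightly above that of all genes with sh1209 in MIA PaCa-2, where 31 of the 50 changes were above 0, and, under quantile normalization, furthest above it with sh1319 in Capan-1, where 48 were below 0 (38 under median scaling). Under quantile normalization CKS1B was the only gene called lower in all 4 pairs, 31 genes were called lower in at least 1 pair, and 17 were called in none. The like counts were not made over all genes, so these counts are not set against a background. Both hairpins of a line were set against the same 2 control arrays.

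The number of calls depended on single arrays. It was 5 with sh1209 in MIA PaCa-2 without sh1209 replicate 2, and with sh1319 there it was 11 without shCtrl replicate 1, 11 without sh1319 replicate 1 and 10 without sh1319 replicate 2. In Capan-1 it was 7 or 8 with sh1209 whichever of the 4 arrays was left out, and 12 with sh1319 without shCtrl replicate 1.

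Median scaling lowered the counts to 1 higher and 4 lower with sh1209 and 1 higher and 7 lower with sh1319 in MIA PaCa-2, and to 1 higher and 0 lower, and 0 higher and 2 lower, in Capan-1. Of all genes, 4.99% were then higher and 4.55% lower, 10.8% and 5.34%, 8.58% and 1.78%, and 8.41% and 1.36%, in the same order. The median of the 50 genes with sh1209 in Capan-1 turned to 0.03, with 27 genes above 0, while the median of all genes moved to 0.09 there and to 0.11 with sh1319. The genes called under both scalings with sh1209 in MIA PaCa-2 were ANLN, AURKB, CKS1B and MAD2L1, all lower, and ASPM, higher. With sh1319 there they were AURKA, CKS1B, FOXM1, HJURP, HMMR, KIF4A and MAD2L1, all lower, and ASPM, higher. In Capan-1 they were PRC1, higher with sh1209, and AURKA and CKAP2L, lower with sh1319. All other calls of the 50 genes in a pair were made under quantile normalization only.

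**Figure D2:**
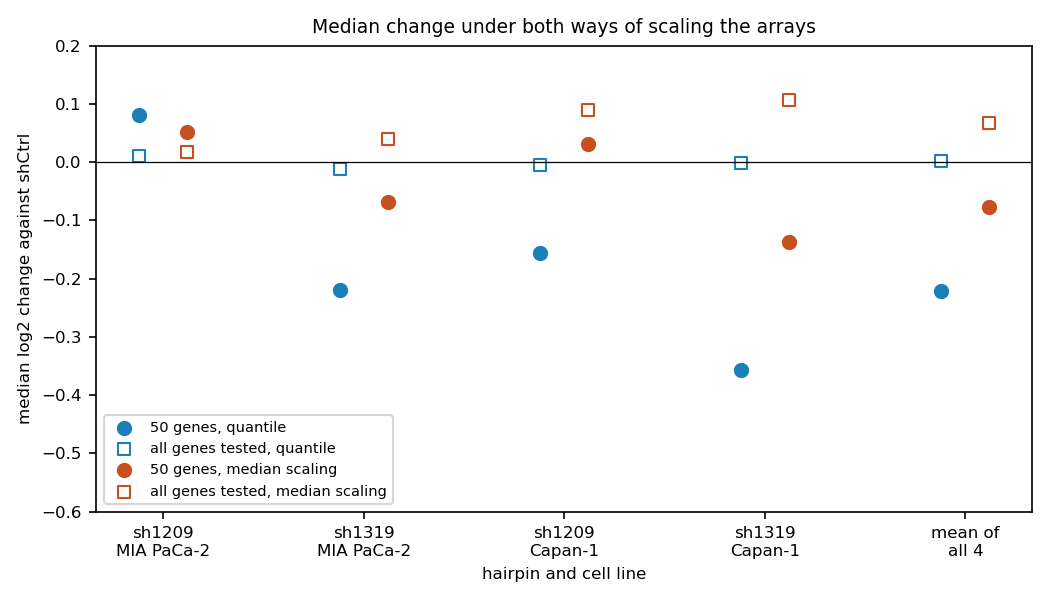
Median log2 change against shCtrl of the 50 genes (filled circles) and of all genes tested (open squares) in the 4 pairs and over all 4, under quantile normalization (blue) and median scaling (orange). The 50 genes lie above all genes with sh1209 in MIA PaCa-2 and below them in the other pairs under both scalings, and under median scaling their median with sh1209 in Capan-1 is above 0.

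FOXM1 gave the largest change of the 50 genes in any pair. FOXM1 read 7.59 and 7.74 in MIA PaCa-2 with shCtrl, 7.79 and 7.91 with sh1209 and 5.70 and 5.74 with sh1319, and in Capan-1 7.31 and 6.99, 6.79 and 6.998, and 6.24 and 6.50. In both lines the arrays with sh1319 were the lowest and overlapped with neither other group, whereas those with sh1209 lay above the control in MIA PaCa-2 and overlapped with it in Capan-1. The change with sh1319 was -1.94 ± 0.15 in MIA PaCa-2 (limma adjusted p = 2.2e-06) and -0.78 ± 0.15 in Capan-1 (adjusted p = 0.0046). With sh1209 it was 0.18 and -0.25 and did not pass the test.

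TOP2A, the topoisomerase that untangles sister chromatids, passed the test in no pair. TOP2A was at 10.55 and 10.49 in MIA PaCa-2 with shCtrl, 10.17 and 10.14 with sh1209 and 10.71 and 10.86 with sh1319, and in Capan-1 11.10 and 11.17, 10.90 and 11.01, and 10.75 and 11.08. Its arrays with sh1209 in MIA PaCa-2 were the lowest of that line and those with sh1319 the highest. The proliferation marker MKI67 was near background, between 4.23 and 5.11 on all arrays, and was not detected with sh1319 in either line. In MIA PaCa-2, where 1 of the 2 control arrays detected it, it was called lower with sh1319 (limma adjusted p = 0.029). Values this near background do not fix the size of that difference. FOXM1 lost its call with sh1319 in Capan-1 without shCtrl replicate 1 (limma adjusted p up to 0.051). MKI67 lost its call with sh1319 in MIA PaCa-2 without shCtrl replicate 2, sh1319 replicate 1 or sh1319 replicate 2 (limma adjusted p up to 0.21).

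On the mean of the 4 pairs 5 of the 7 mitotic kinases were called lower, where 12.6% of all genes were, and their median change was -0.32. Levels of AURKA on the MIA PaCa-2 arrays were 10.31 and 10.10 with shCtrl, 10.23 and 10.16 with sh1209 and 9.26 and 9.18 with sh1319, and those on the Capan-1 arrays were 10.17 and 9.96, 9.93 and 9.95, and 9.20 and 9.19 in the same order. AURKA, the kinase of centrosomes and spindle poles, was thus low with sh1319 in both lines with no overlap (-0.99, adjusted p = 0.00011 in MIA PaCa-2 and -0.87, adjusted p = 0.00078 in Capan-1, limma), and with sh1209 its changes were -0.01 and -0.13. AURKB read 9.02 and 9.14 in MIA PaCa-2 with shCtrl, 8.46 and 8.37 with sh1209 and 9.15 and 9.16 with sh1319, and in Capan-1 8.21 and 8.23, 7.56 and 7.37, and 7.35 and 7.69. AURKB, the kinase of the chromosomal passenger complex, fell with sh1209 in MIA PaCa-2 (-0.67, adjusted p = 0.005) and with both hairpins in Capan-1 (-0.76, adjusted p = 0.0028, and -0.70, adjusted p = 0.0055). With sh1319 in MIA PaCa-2, where the change of AURKA was largest, AURKB lay just above its control (0.07).

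TTK read 9.23 and 9.06 in MIA PaCa-2 with shCtrl, 9.05 and 9.31 with sh1209 and 8.92 and 9.01 with sh1319, and in Capan-1 8.91 and 8.84, 8.21 and 8.18, and 8.33 and 8.57. TTK, which starts checkpoint signalling at unattached kinetochores, overlapped with its control with sh1209 in MIA PaCa-2, lay just below it with sh1319 (-0.18), and fell with sh1209 in Capan-1 (-0.68, adjusted p = 0.0045). The checkpoint kinase BUB1 fell with sh1319 in both lines (-0.47, adjusted p = 0.021, and -0.68, adjusted p = 0.005), and NEK2, which acts in centrosome separation, fell with both hairpins in Capan-1 (-0.46, adjusted p = 0.035, and -0.68, adjusted p = 0.0059, limma). PLK1 and BUB1B passed the test in no pair. PLK1 read 7.03 and 6.27 with sh1319 in Capan-1 against 7.27 and 7.32 with shCtrl, below the control and far apart (-0.64 ± 0.21, limma adjusted p = 0.064). AURKB lost its call with sh1319 in Capan-1 without sh1319 replicate 1 (limma adjusted p up to 0.054). BUB1 lost its call with sh1319 in MIA PaCa-2 without shCtrl replicate 1 or sh1319 replicate 1 (limma adjusted p up to 0.12). NEK2 lost its calls with sh1209 in Capan-1 without shCtrl replicate 2, sh1209 replicate 1 or sh1209 replicate 2 (limma adjusted p up to 0.26) and with sh1319 in Capan-1 without shCtrl replicate 2 (limma adjusted p up to 0.062).

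**Figure D3:**
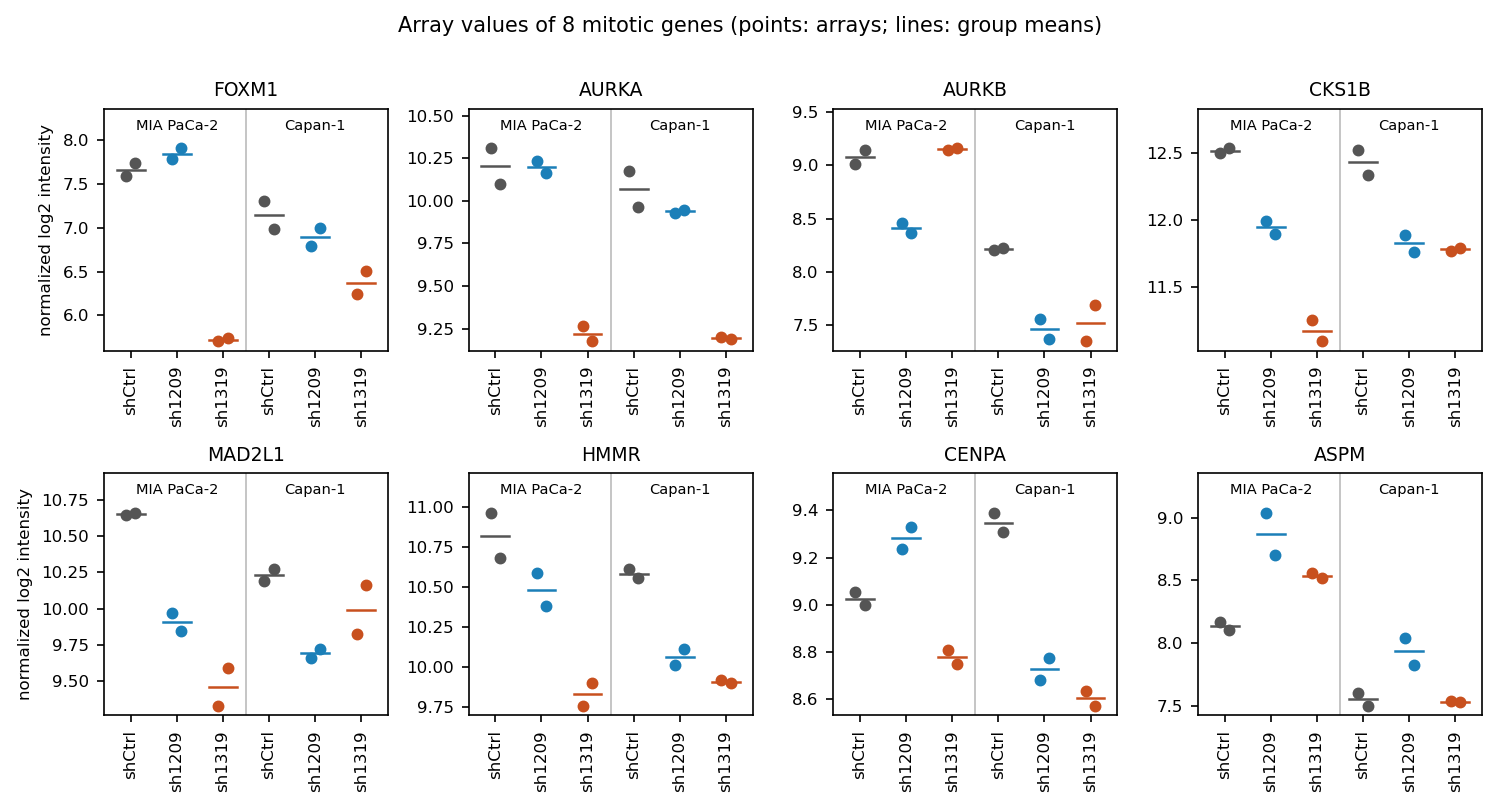
Normalized log2 intensity of FOXM1, AURKA, AURKB, CKS1B, MAD2L1, HMMR, CENPA and ASPM on each of the 12 arrays (points) with the mean of each group (lines), by hairpin and cell line, each panel with its own y axis. FOXM1 and AURKA are low with sh1319 in both lines, AURKB is low in every knockdown group but sh1319 in MIA PaCa-2, and CKS1B is low with every FAK hairpin.

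Of the cyclins, CDK subunits and CDC25 phosphatases 3 of 7 were called lower on the mean of the 4 pairs, where 12.6% of all genes were. Levels of CKS1B on the MIA PaCa-2 arrays were 12.50 and 12.54 with shCtrl, 11.99 and 11.89 with sh1209 and 11.25 and 11.09 with sh1319, and those on the Capan-1 arrays were 12.52 and 12.34, 11.89 and 11.76, and 11.77 and 11.79 in the same order. All 8 arrays with a FAK hairpin lay below all 4 control arrays. The changes of CKS1B were -0.57, -1.34, -0.61 and -0.65 in the order of pairs used above (each ± 0.12 SE, limma adjusted p = 0.006, 8.9e-06, 0.005 and 0.004), and no left-out array ended a call. Under median scaling CKS1B kept its calls in MIA PaCa-2 and lost those in Capan-1. CKS2 was at 12.70 and 12.61 in MIA PaCa-2 with shCtrl, 12.88 and 12.85 with sh1209 and 12.68 and 12.75 with sh1319, and in Capan-1 12.69 and 12.70, 12.11 and 12.21, and 12.56 and 12.69. CKS2, its close relative, was lower only with sh1209 in Capan-1 (-0.53, adjusted p = 0.0067, limma), where its other tested probe also fell (-0.85, adjusted p = 0.00036).

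CCNA2, cyclin A2, fell with sh1319 in MIA PaCa-2 (-0.44, adjusted p = 0.027) and with both hairpins in Capan-1 (-0.42, adjusted p = 0.044, and -0.58, adjusted p = 0.011). CCNB1, cyclin B1, fell with sh1319 in MIA PaCa-2 (-0.59, adjusted p = 0.015, limma), and CCNB2 lay between -0.18 and 0.20 and was called in no pair. CDC25B read 9.22 and 9.34 in MIA PaCa-2 with shCtrl, 9.71 and 9.87 with sh1209 and 9.01 and 9.07 with sh1319, and in Capan-1 8.35 and 8.29, 8.28 and 8.48, and 7.59 and 7.79. CDC25B, a phosphatase that activates CDK1, was above its control with sh1209 in MIA PaCa-2 (0.52, adjusted p = 0.014) and below it with sh1319 in Capan-1 (-0.63, adjusted p = 0.0067), where a second probe near background was at 0.38 without passing the test. CDC25C, of the same family, was called in no pair on its brightest probe, and 1 of its 2 other probes fell with sh1319 in Capan-1 (-0.46, limma adjusted p = 0.041). CKS2 lost its call with sh1209 in Capan-1 without sh1209 replicate 1 (limma adjusted p up to 0.054). CCNA2 lost its calls with sh1319 in MIA PaCa-2 without shCtrl replicate 1, sh1319 replicate 1 or sh1319 replicate 2 (limma adjusted p up to 0.22), with sh1209 in Capan-1 whichever of its 4 arrays was left out (limma adjusted p up to 0.16) and with sh1319 in Capan-1 whichever of its 4 arrays was left out (limma adjusted p up to 0.063). CCNB1 lost its call with sh1319 in MIA PaCa-2 without shCtrl replicate 1, sh1319 replicate 1 or sh1319 replicate 2 (limma adjusted p up to 0.12). CDC25B lost its calls with sh1209 in MIA PaCa-2 without shCtrl replicate 1 or sh1209 replicate 2 (limma adjusted p up to 0.097) and with sh1319 in Capan-1 without shCtrl replicate 1 or sh1319 replicate 1 (limma adjusted p up to 0.061).

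Checkpoint and anaphase genes were called lower on the mean of the 4 pairs in 3 of 5 cases, where 12.6% of all genes were. Levels of MAD2L1 on the MIA PaCa-2 arrays were 10.65 and 10.66 with shCtrl, 9.97 and 9.85 with sh1209 and 9.33 and 9.59 with sh1319, and those on the Capan-1 arrays were 10.19 and 10.27, 9.66 and 9.72, and 9.83 and 10.16 in the same order. All knockdown arrays lay below their controls, and those with sh1319 in Capan-1 were closest to them. MAD2L1 fell in MIA PaCa-2 (-0.75, adjusted p = 0.003, and -1.20, adjusted p = 7.1e-05) and with sh1209 in Capan-1 (-0.54, adjusted p = 0.02, limma). CDCA3 read 8.94 and 8.76 in MIA PaCa-2 with shCtrl, 9.24 and 9.10 with sh1209 and 8.81 and 8.81 with sh1319, and in Capan-1 7.91 and 7.92, 7.38 and 7.29, and 7.23 and 7.15. CDCA3, which acts in the degradation that permits mitotic entry, fell with both hairpins in Capan-1 (-0.58, adjusted p = 0.0053, and -0.72, adjusted p = 0.0018) and in MIA PaCa-2 was at 0.32 and -0.04. UBE2C, the ubiquitin-conjugating enzyme of the anaphase-promoting complex, fell with sh1319 in Capan-1 (-0.56, adjusted p = 0.0045). PTTG1 was at 11.88 and 11.91 in MIA PaCa-2 with shCtrl, 12.05 and 12.005 with sh1209 and 11.71 and 11.69 with sh1319, and in Capan-1 12.16 and 12.17, 12.38 and 12.12, and 11.91 and 11.81. PTTG1, which encodes securin, and CDC20, the activator of that complex, were called in no pair. MAD2L1 lost its call with sh1209 in Capan-1 whichever of its 4 arrays was left out (limma adjusted p up to 0.11).

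Centromere and kinetochore genes were called lower on the mean of the 4 pairs in 4 of 7 cases, where 12.6% of all genes were. Their median change was -0.27. Levels of CENPA on the MIA PaCa-2 arrays were 9.05 and 8.998 with shCtrl, 9.24 and 9.33 with sh1209 and 8.81 and 8.75 with sh1319, and those on the Capan-1 arrays were 9.39 and 9.31, 8.68 and 8.77, and 8.63 and 8.57 in the same order. CENPA, the histone variant that marks centromeres, was below its controls with both hairpins in Capan-1 (-0.62, adjusted p = 0.0025, and -0.75, adjusted p = 0.001, limma). In MIA PaCa-2 it lay above them with sh1209 and below them with sh1319 (0.26 and -0.25, adjusted p = 0.13 for both). HJURP, the chaperone that deposits CENPA, fell with sh1319 in both lines (-0.73, adjusted p = 4e-04, and -0.65, adjusted p = 0.0023) and was at 0.18 and 0.11 with sh1209.

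Members of the NDC80 complex, which couples kinetochores to microtubules, gave unequal values. NUF2 read 8.64 and 8.67 in MIA PaCa-2 with shCtrl, 8.54 and 8.50 with sh1209 and 7.98 and 8.05 with sh1319, and in Capan-1 7.38 and 7.41, 6.72 and 6.66, and 6.82 and 6.83. NUF2 fell with sh1319 in MIA PaCa-2 (-0.64, adjusted p = 0.00078) and with both hairpins in Capan-1 (-0.71, adjusted p = 0.00081, and -0.57, adjusted p = 0.004), with no overlap in any of the 3. SPC25 fell with sh1209 in both lines (-0.54, adjusted p = 0.018, and -0.45, adjusted p = 0.043, limma), and NDC80 itself lay between -0.23 and 0.19 and was called in no pair. The kinetochore motor CENPE fell with sh1319 in Capan-1 (-0.45, adjusted p = 0.049), and CENPF was called in no pair. SPC25 lost its calls with sh1209 in MIA PaCa-2 without shCtrl replicate 2 or sh1209 replicate 2 (limma adjusted p up to 0.12) and with sh1209 in Capan-1 without shCtrl replicate 1, shCtrl replicate 2 or sh1209 replicate 1 (limma adjusted p up to 0.3). CENPE lost its call with sh1319 in Capan-1 whichever of its 4 arrays was left out (limma adjusted p up to 0.26).

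Of the 6 kinesins, 1 was called lower on the mean of the 4 pairs, KIF4A, where 12.6% of all genes were. KIF4A read 7.31 and 7.33 in MIA PaCa-2 with shCtrl, 6.88 and 6.95 with sh1209 and 6.35 and 6.60 with sh1319, and in Capan-1 5.66 and 5.78, 6.18 and 5.80, and 5.32 and 5.52. This chromokinesin fell with sh1319 in MIA PaCa-2 with no overlap (-0.84, adjusted p = 0.0014), and in Capan-1 it was dim and at 0.27 and -0.29. KIFC1 was at 8.74 and 8.65 in MIA PaCa-2 with shCtrl, 8.90 and 8.83 with sh1209 and 8.24 and 8.17 with sh1319, and in Capan-1 8.51 and 8.31, 8.33 and 8.41, and 8.12 and 8.27. KIFC1, a minus-end-directed motor that focuses spindle poles, fell with sh1319 in MIA PaCa-2 (-0.49, adjusted p = 0.011), as did the microtubule depolymerase KIF2C (-0.39, adjusted p = 0.041, limma). KIF11, which pushes spindle poles apart, and KIF20A and KIF23, which act in cytokinesis, were called in no pair on their brightest probes. A dim second probe of KIF23 rose with sh1209 in MIA PaCa-2 (0.87, limma adjusted p = 0.0017). KIFC1 lost its call with sh1319 in MIA PaCa-2 without shCtrl replicate 1 or sh1319 replicate 2 (limma adjusted p up to 0.064). KIF2C lost its call with sh1319 in MIA PaCa-2 whichever of its 4 arrays was left out (limma adjusted p up to 0.21).

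Spindle microtubule proteins were called lower in 3 of 10 cases and higher in 2 on the mean of the 4 pairs. Among all genes 12.6% were called lower and 13.0% higher. Their median change was -0.07. These proteins included 3 of the 4 genes that rose in some pair, the other being CDC25B. How many of all genes rose in some pair was not counted. ASPM read 8.16 and 8.10 in MIA PaCa-2 with shCtrl, 9.04 and 8.70 with sh1209 and 8.56 and 8.51 with sh1319, and in Capan-1 7.60 and 7.50, 8.04 and 7.82, and 7.53 and 7.53. ASPM was above its controls with both hairpins in MIA PaCa-2 (0.74, adjusted p = 0.0027, and 0.40, adjusted p = 0.048) and with sh1209 in Capan-1, where the difference of 0.38 did not pass the test (limma adjusted p = 0.078). TPX2 read 8.32 and 8.13 in MIA PaCa-2 with shCtrl, 8.78 and 8.83 with sh1209 and 8.23 and 8.21 with sh1319, and in Capan-1 8.13 and 7.999, 7.96 and 8.03, and 7.38 and 7.63. TPX2, which activates AURKA on the spindle, rose with sh1209 in MIA PaCa-2 (0.59, adjusted p = 0.0068) and fell with sh1319 in Capan-1 (-0.56, adjusted p = 0.012). Levels of PRC1 on the MIA PaCa-2 arrays were 8.87 and 8.70 with shCtrl, 8.99 and 8.80 with sh1209 and 8.88 and 8.98 with sh1319, and those on the Capan-1 arrays were 10.02 and 9.99, 10.53 and 10.56, and 10.19 and 10.40 in the same order. PRC1 rose with sh1209 in Capan-1 (0.54, adjusted p = 0.013), and it was the only gene of the 50 with a change above 0 in all 4 pairs.

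HMMR, CKAP2L, GTSE1 and DLGAP5 fell in some pair and rose in none. HMMR read 10.97 and 10.68 in MIA PaCa-2 with shCtrl, 10.59 and 10.38 with sh1209 and 9.76 and 9.90 with sh1319, and in Capan-1 10.61 and 10.56, 10.01 and 10.11, and 9.91 and 9.90. HMMR was below its controls in every knockdown group, and passed the test with sh1319 in MIA PaCa-2 (-0.996, adjusted p = 0.00018) and with both hairpins in Capan-1 (-0.52, adjusted p = 0.018, and -0.68, adjusted p = 0.0055, limma). CKAP2L read 8.35 and 8.47 in MIA PaCa-2 with shCtrl, 8.30 and 8.30 with sh1209 and 8.59 and 8.57 with sh1319, and in Capan-1 8.33 and 8.27, 8.21 and 8.13, and 7.45 and 7.34. CKAP2L, a spindle-associated protein, was low only with sh1319 in Capan-1 (-0.91, adjusted p = 3e-04). GTSE1, a microtubule-associated protein of G2 and mitosis, fell with both hairpins in MIA PaCa-2 (-0.56, adjusted p = 0.013, and -0.58, adjusted p = 0.0072) and with sh1209 in Capan-1 (-0.55, adjusted p = 0.015). DLGAP5, a spindle assembly factor, fell with sh1319 in Capan-1 (-0.57, adjusted p = 0.0091). NUSAP1 was at 10.10 and 10.10 in MIA PaCa-2 with shCtrl, 10.22 and 10.08 with sh1209 and 10.38 and 10.34 with sh1319, and in Capan-1 10.43 and 10.45, 10.40 and 10.37, and 10.44 and 10.48. NUSAP1, CKAP2 and TACC3, which bind spindle microtubules, were called in no pair. ASPM lost its call with sh1319 in MIA PaCa-2 whichever of its 4 arrays was left out (limma adjusted p up to 0.17). TPX2 lost its calls with sh1209 in MIA PaCa-2 without shCtrl replicate 2 (limma adjusted p up to 0.055) and with sh1319 in Capan-1 without shCtrl replicate 1 or sh1319 replicate 1 (limma adjusted p up to 0.1). PRC1 lost its call with sh1209 in Capan-1 whichever of its 4 arrays was left out (limma adjusted p up to 0.076). HMMR lost its call with sh1209 in Capan-1 whichever of its 4 arrays was left out (limma adjusted p up to 0.11). GTSE1 lost its calls with sh1209 in MIA PaCa-2 without shCtrl replicate 2 or sh1209 replicate 2 (limma adjusted p up to 0.1), with sh1319 in MIA PaCa-2 without shCtrl replicate 2 or sh1319 replicate 2 (limma adjusted p up to 0.065) and with sh1209 in Capan-1 without shCtrl replicate 1, shCtrl replicate 2 or sh1209 replicate 2 (limma adjusted p up to 0.1). DLGAP5 lost its call with sh1319 in Capan-1 without shCtrl replicate 1 or sh1319 replicate 1 (limma adjusted p up to 0.066).

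Of the chromosomal passenger and cytokinesis genes 2 of 5, CDCA8 and RACGAP1, were called lower on the mean of the 4 pairs. Among all genes 12.6% were. CDCA8 read 8.51 and 8.63 in MIA PaCa-2 with shCtrl, 8.79 and 8.77 with sh1209 and 8.02 and 8.02 with sh1319, and in Capan-1 8.36 and 8.12, 7.76 and 7.90, and 7.61 and 7.71. CDCA8, which encodes borealin, fell with sh1319 in MIA PaCa-2 (-0.55, adjusted p = 0.006) and with both hairpins in Capan-1 (-0.41, adjusted p = 0.037, and -0.58, adjusted p = 0.0084, limma). ANLN read 8.85 and 8.69 in MIA PaCa-2 with shCtrl, 8.33 and 7.85 with sh1209 and 8.44 and 8.80 with sh1319, and in Capan-1 8.87 and 8.86, 8.88 and 8.53, and 8.47 and 8.77. ANLN, the scaffold protein anillin of the cleavage furrow, was below its control with sh1209 in MIA PaCa-2 (-0.68, adjusted p = 0.03), where its arrays also lay furthest apart. RACGAP1, of the central spindle, fell with sh1319 in Capan-1 (-0.48, adjusted p = 0.019), where a dimmer probe was at 0.36 without passing the test (limma adjusted p = 0.2).

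ECT2 was at 10.54 and 10.44 in MIA PaCa-2 with shCtrl, 10.50 and 10.28 with sh1209 and 10.33 and 10.39 with sh1319, and in Capan-1 10.62 and 10.81, 10.57 and 10.45, and 10.48 and 10.44. ECT2, the exchange factor that starts furrow formation, and BIRC5, which encodes survivin, were called in no pair. CDCA8 lost its calls with sh1209 in Capan-1 without shCtrl replicate 1, sh1209 replicate 1 or sh1209 replicate 2 (limma adjusted p up to 0.24) and with sh1319 in Capan-1 without shCtrl replicate 1 or sh1319 replicate 1 (limma adjusted p up to 0.082). ANLN lost its call with sh1209 in MIA PaCa-2 without shCtrl replicate 1, shCtrl replicate 2 or sh1209 replicate 2 (limma adjusted p up to 0.22). RACGAP1 lost its call with sh1319 in Capan-1 without shCtrl replicate 1, shCtrl replicate 2 or sh1319 replicate 2 (limma adjusted p up to 0.15). Over the 21 of the 50 genes with more than 1 tested probe, the mean of the 4 pairs was read for each probe. All probes of a gene had the same sign in 15, and in none were probes called in opposite directions.

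The hairpins were also compared with each other within a line. In MIA PaCa-2, sh1319 was lower than sh1209 for 21 of the 50 genes and higher for 2, AURKB (0.74, adjusted p = 0.0018) and TOP2A (0.62, adjusted p = 0.0042, limma), where 11.8% of all genes were lower and 11.1% higher. The median difference was -0.33 against -0.02 over all genes. In Capan-1 it was lower for 9 and higher for 1, CKS2 (0.46, adjusted p = 0.02), where 5.99% of all genes were lower and 5.66% higher, and the median was -0.17 against 0.01. FOXM1 gave -2.13 and -0.52 in the lines (limma adjusted p = 1.3e-06 and 0.039), AURKA -0.98 and -0.74 (0.00013 and 0.0023), and HJURP -0.92 and -0.76 (8.4e-05 and 0.00095). BUB1, CDC25B, DLGAP5 and TPX2 were also lower with sh1319 in both.

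AURKA, CDC25B and HJURP held their hairpin calls in both lines whichever array was left out. In MIA PaCa-2 those of CDCA3 and TACC3 were lost whichever of the 4 arrays was left out and those of BUB1, CENPE, DLGAP5, MAD2L1, MKI67 and UBE2C without 2 or 3 of them. In Capan-1 the count ranged from 4 to 6 with 1 of the 4 arrays left out, BUB1, DLGAP5 and FOXM1 being lost whichever it was and CKS2, KIF4A and TPX2 without 3. Under median scaling sh1319 was lower for 6 genes and higher for ANLN, AURKB and TOP2A in MIA PaCa-2, where 5.01% of all genes were lower and 9.23% higher, and lower for AURKA, CKAP2L and HJURP in Capan-1, where 2.92% of all genes were lower and 2.26% higher.

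The response was then compared between the cell lines, which share no arrays. The mean change over both hairpins differed for 7 of the 50 genes, being lower in Capan-1 for 5 and higher for 2, where 14.8% of all genes differed (7.53% lower and 7.31% higher). The differences, Capan-1 minus MIA PaCa-2, were -0.79 for CDCA3 (limma adjusted p = 0.0032), -0.69 for CENPA (0.0051), -0.60 for TPX2 (0.022), -0.54 for CKAP2L (0.018) and -0.43 for UBE2C (0.046). They were 0.58 for MAD2L1 (0.041) and 0.61 for KIF4A (0.045, limma), whose mean changes were lower in MIA PaCa-2. KIF4A itself was called in neither pair of Capan-1 (0.27 and -0.29). PTK2 also differed in this comparison (1.17, limma adjusted p = 0.00021), its fall being smaller in Capan-1, and the lines were kept in different puromycin concentrations. The part of either in these differences was not tested. With the background offset of 16 used here, 7 of 50 genes is close to the share of all genes. With no background correction, 15 genes were lower and 3 higher, where 10.2% of all genes were lower and 9.81% higher, and with an offset of 50 it was 13 and 3, where 9.95% and 9.54% were.

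Only CDCA3 and CENPA held this call whichever of the 12 arrays was left out. UBE2C lost it whichever of the 12 was left out, MAD2L1 when any of 10 was and KIF4A when any of 9 was. CKAP2L lost it without shCtrl replicate 1 of MIA PaCa-2 or either control array of Capan-1, and TPX2 without shCtrl replicate 2 of MIA PaCa-2 or shCtrl replicate 1 of Capan-1. The count was between 2 and 4 without 8 of the 12 arrays. Under median scaling none of the 50 passed, where 2.54% of all genes were lower and 5.28% higher, with CDCA3 at -0.61 (limma adjusted p = 0.17) and CENPA at -0.58 (adjusted p = 0.2).

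**Figure D4:**
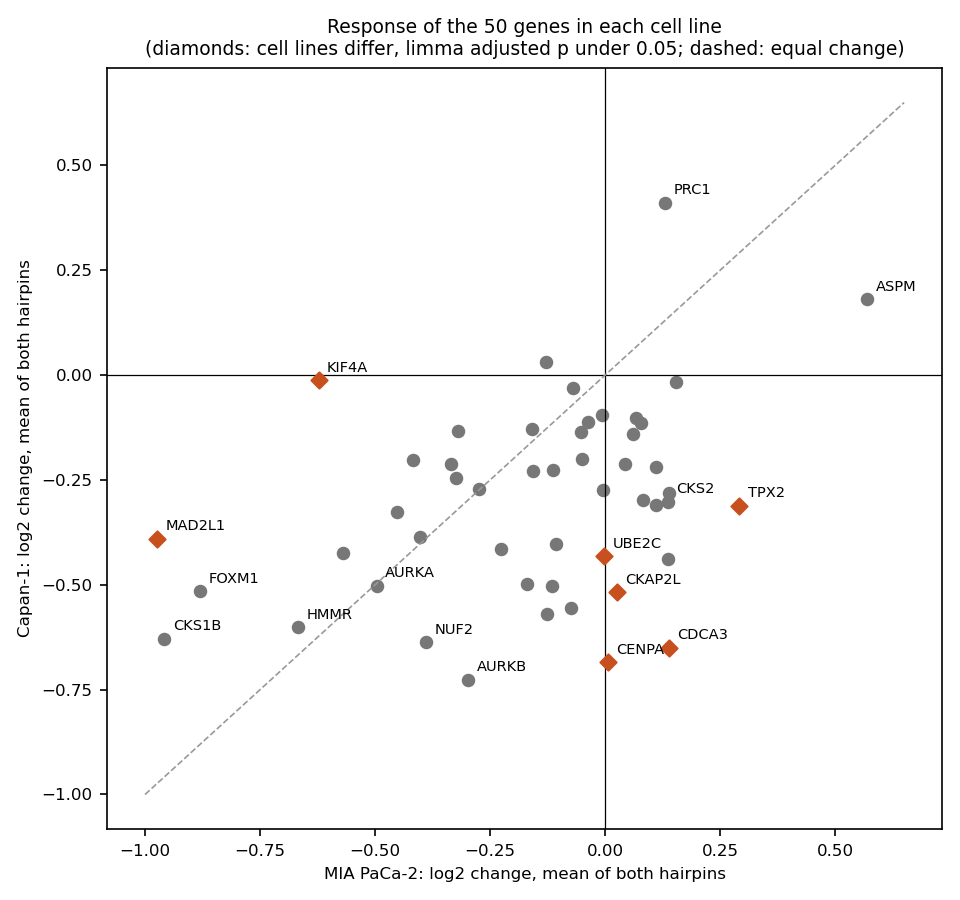
Log2 change of each of the 50 genes in MIA PaCa-2 (x axis) and Capan-1 (y axis), as the mean of both hairpins against shCtrl, with diamonds for the 7 genes whose response differed between the lines and a dashed line of equal change. Most points lie below 0 on the y axis, CKS1B, HMMR, FOXM1 and AURKA are low on both axes, and CENPA and CDCA3 are low on the y axis alone.

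With the control hairpin alone the lines differed in many of these genes. Capan-1 was lower than MIA PaCa-2 for 22 of the 50 and higher for 5, where 22.2% of all genes were lower and 20.3% higher, and the median difference was -0.25 against -0.04. CDC25C read 7.94 and 8.17 in MIA PaCa-2 against 6.33 and 6.21 in Capan-1, the largest difference of the 50 (-1.78 ± 0.14, limma adjusted p = 6.2e-07). KIF4A (-1.60), SPC25 (-1.32), NUF2 (-1.26), BUB1 (-1.17), TACC3 (-1.09) and NEK2 (-1.07) were also lower, with no overlap between the lines. PRC1 was higher in Capan-1 (1.22, adjusted p = 7.2e-06), as were TOP2A (0.62, adjusted p = 0.0021, limma), DLGAP5, NUSAP1 and CENPA (0.32 to 0.41).

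Of these 27 calls 18 held whichever control array was left out. Those of CENPA, MAD2L1 and NUSAP1 were lost whichever of the 4 was left out, and those of BIRC5, CDCA8, CKAP2, DLGAP5, FOXM1 and KIF11 without 2 or 3 of them. Under median scaling 16 genes were lower and PRC1 alone was higher, where 14.3% of all genes were lower and 18.2% higher. CKS1B, AURKA and PLK1 differed between the lines by -0.09, -0.14 and 0.06 and did not pass the test.

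**Figure D5:**
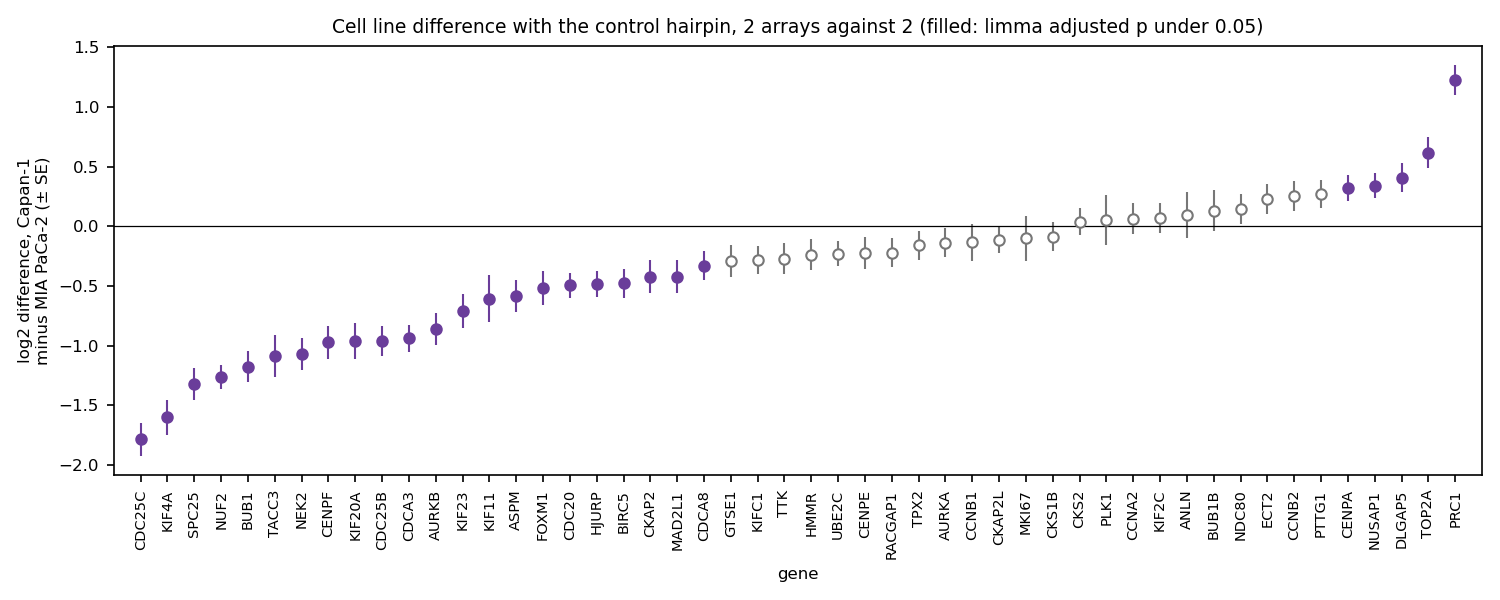
Log2 difference of Capan-1 from MIA PaCa-2 with the control hairpin for each of the 50 genes, in order of size, with bars of 1 SE and filled points at limma adjusted p under 0.05. The differences run from -1.78 for CDC25C to 1.22 for PRC1.

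Other genes of mitosis were read from lists by function, on the mean of the 4 pairs. There 12.6% of all genes fell and 13.0% rose, and 3.86% fell and 14.3% rose under median scaling. Of 15 genes of CDK1 and G2 entry control 4 fell and 3 rose, with a median of 0.00, and 3 fell and 3 rose under median scaling, with a median of 0.12. CDC2 (CDK1) read 11.04 and 10.97 in MIA PaCa-2 with shCtrl, 10.47 and 10.47 with sh1209 and 9.92 and 10.16 with sh1319, and in Capan-1 11.07 and 11.12, 10.17 and 10.29, and 9.83 and 9.98. This kinase, which the cyclins above activate, was below its controls in every knockdown group (-0.89, adjusted p = 7.4e-06). MASTL, which restrains the phosphatase that opposes CDK1, fell (-0.75, adjusted p = 3.8e-05), and GADD45A, a stress-induced inhibitor of CDK1, rose (0.76, adjusted p = 6.1e-05, limma), with MIA PaCa-2 changes of 1.65 and 1.91 against -0.13 and -0.40 in Capan-1. SFN read 4.31 and 4.16 in MIA PaCa-2 with shCtrl, 6.54 and 6.45 with sh1209 and 8.80 and 9.09 with sh1319, and in Capan-1 8.18 and 8.04, 7.14 and 7.11, and 7.32 and 7.34. SFN, which encodes the G2 checkpoint protein 14-3-3 sigma, was detected on every knockdown array of MIA PaCa-2 and on neither control array there, while in Capan-1 it fell (-0.99, adjusted p = 0.00031, and -0.78, adjusted p = 0.0021, limma).

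Among 26 other centromere and kinetochore genes 12 fell and 3 rose (median -0.20), where 12.6% of all genes fell and 13.0% rose. Under median scaling 7 fell and 3 rose, where 3.86% of all genes fell and 14.3% rose. MIS12, a kinetochore protein (-1.05, adjusted p = 3.4e-06), and MIS18A, listed as C21ORF45, which acts in loading CENPA (-0.998, adjusted p = 2.1e-06, limma), fell most. SPC24 of the NDC80 complex (0.43, adjusted p = 0.0031) and SKA2 (0.35, adjusted p = 0.0027, limma) rose most. Of 17 cohesin and condensin genes 6 fell (median -0.22), led by the shugoshins SGOL1 (-0.65) and SGOL2 (-0.53), which protect cohesin, and 2 fell under median scaling. Of 12 checkpoint and anaphase regulators 5 fell (median -0.14), led by ZWINT (-0.44) and TRIP13 (-0.40), and none was called under median scaling.

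Core subunits of the anaphase-promoting complex fell in 2 of 11 cases under both scalings, CDC26 (-0.72, adjusted p = 6.6e-05) and ANAPC13 (-0.65, adjusted p = 5.5e-05, limma), while the median of the list went from -0.13 to 0.03 under median scaling. Of 13 MuvB, B-MYB and pocket protein regulators 3 fell and 2 rose (median 0.05), where 12.6% of all genes fell and 13.0% rose. Under median scaling 1 fell and 2 rose (median 0.12), where 3.86% of all genes fell and 14.3% rose. RBBP4 (-0.58) and LIN9 (-0.38), both MuvB subunits, fell most, DYRK1A, a kinase that promotes assembly of the repressive complex, rose (0.28), and LIN37 was called higher but was detected on neither control array of MIA PaCa-2. MYBL2, which encodes B-MYB, was not detected in 1 group and was not called.

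Genes of DNA replication and S phase were also lower. On the mean of the 4 pairs 23 of 44 fell and 2 rose, where 12.6% of all genes fell and 13.0% rose. The median was -0.27, against -0.22 for the mitotic genes. Under median scaling 11 fell and 2 rose, where 3.86% of all genes fell and 14.3% rose. GMNN, the inhibitor of origin licensing (-1.08, adjusted p = 1.3e-06), and GINS4, of the replicative helicase (-1.04, adjusted p = 8.4e-05), fell most, and GINS3 (0.53) and MCM2 (0.29), of the same helicase, rose (limma). With sh1319 in MIA PaCa-2 30 of the 44 fell (median -0.57), where 12.2% of all genes fell, and with sh1319 in Capan-1 16 fell (median -0.28), where 6.86% did. The mitotic genes had medians of -0.22 and -0.36 there. Under median scaling 13 of the 44 were lower (median -0.45), where 5.34% of all genes were, and 2 (median -0.12), where 1.36% were. Of 14 G1 cyclins, CDKs and CDK inhibitors 7 fell and 1 rose (median -0.21), with CCNE2 (-1.05) and CDK6 (-0.90) falling most, and 3 fell and 2 rose under median scaling. CCND2, the gene that rose, was detected only in the knockdown groups of MIA PaCa-2. Differences between these lists were not tested.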

How the data were processed

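RNA was measured in 12 samples, 2 in each of 6 groups, on an Illumina Human HT12_4 bead array. The authors deposited a non-normalized table with, for each of 47320 probes and each array, the mean bead intensity on a linear scale and a detection p-value against negative control beads. The submitters' processing notes name GenomeStudio 2011.1. The table also holds 28 columns without values, which were not used, and 0 further columns of sample values.

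Intensities were background-corrected (normexp from the detection p-values, offset 16), 92 control probes were dropped, and log2 values were quantile-normalized with limma 3.58.1 in R 4.3.3. Probes detected at p under 0.05 on at least 2 of 12 arrays were tested (24207 of 47228). The limma fit had a mean for each of the 6 groups, which leaves 6 residual degrees of freedom. Benjamini-Hochberg adjustment ran over all tested probes, with a threshold of 0.05. Each of 19089 genes was given by its brightest tested probe. Arrays give no counts, so their number limits the precision.

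Values by array were given for the brightest member and the member with the largest change over all pairs in each role group, for the 3 largest rises and 3 largest falls called in each pair, and for the 6 largest differences in response between the lines. Of each functional list the 2 largest rises and 2 largest falls were named. A few further genes were given by array after their values were seen. The members, the lists and the motifs were chosen with earlier results of these data known. The alternatives were no background correction, an offset of 50, median scaling, other filters, a replicate block, array weights, the mean of a gene's probes, fits within 1 line, the methods' t-test and each array left out. Averaging the arrays of a group first was chosen after seeing the data. The procedure was tested on simulated data in which 100 of 24207 probes changed by a log2 of 0.5 and 100 by 1. In single pairs it recovered 5% to 9% of the smaller changes and 58% to 67% of the larger. On the mean of the 4 pairs it recovered 52% and 96%, and for the difference in response 0% and 40%. False calls were 3.03% to 7.14%. A gene not called in a pair is thus not shown to be unchanged. Far more genes were called in the real data than were changed in the simulation. The Benjamini-Hochberg adjustment is stricter when few genes change, so these recovery rates do not carry over to the real pairs.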

Additional observations from a re-analysis of the deposited data

Results flagged for a closer look

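The response to knockdown, as the mean of both hairpins, differed between the cell lines for 7 of the 50 genes in limma at an adjusted p under 0.05, where 14.8% of all genes differed. The log2 difference, Capan-1 minus MIA PaCa-2, was -0.79 for CDCA3, -0.69 for CENPA, -0.60 for TPX2, -0.54 for CKAP2L, -0.43 for UBE2C, 0.58 for MAD2L1 and 0.61 for KIF4A. CDCA3 and CENPA alone were called whichever of the 12 arrays was left out, and none of the 7 was called under median scaling. The PTK2 change also differed, by 1.17 (limma adjusted p = 0.00021), and the part of unequal knockdown in these differences was not tested.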

How the results depend on the processing

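Median scaling, under which each array keeps its own distribution, lowered the number of the 50 genes called in every comparison: 5, 8, 1 and 2 in the 4 pairs (sh1209 and sh1319 in MIA PaCa-2, then in Capan-1), 7 over all pairs, 0 for the difference in response, 9 and 3 between hairpins in MIA PaCa-2 and Capan-1, and 17 between the lines with shCtrl. The PTK2 change with sh1209 in Capan-1 was then -0.42 and did not pass, and KIFC1 over all pairs, not called, turned from -0.14 to 0.00087. With no background correction or an offset of 50, the calls rose to 20 and 18 with sh1209 in MIA PaCa-2, where 11.9% and 11.6% of all genes were higher and 11% and 10.8% lower, and to 18 and 16 for the difference in response, where 9.81% and 9.54% were higher and 10.2% and 9.95% lower. The methods' t-test with Benjamini-Hochberg adjustment called 0 genes in the 4 pairs and in both hairpin comparisons and 14 between the lines, and none of the PTK2 changes (-2.24, -2.48, -0.61 and -1.78). Unadjusted, it called 15 with sh1209 in MIA PaCa-2. With the arrays of a group averaged first, 0 were called over all pairs. The cause of these differences was not tested. With 1 compared array left out, the calls ranged from 5 to 11, 10 to 13, 7 to 8 and 12 to 17 in the pairs, 17 to 28 over all pairs, 2 to 7 for the difference in response, 16 to 20 and 4 to 6 between hairpins and 20 to 21 between the lines. The PTK2 changes ranged from -2.31 to -2.18, -2.53 to -2.43, -0.70 to -0.52 and -1.87 to -1.69.

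After quantile normalization, deviations of same-numbered arrays correlated at -0.06 to 0.16 over 15 pairs of groups, and 1 was over 0.1. That normalization removes shifts of a whole array, so these values cannot exclude an effect shared by arrays of the same number. The raw median intensity was higher for replicate 2 in each group, at 92.5 to 97 against 87.7 to 92.8 for replicate 1. With the replicate block the calls were 9, 16, 14 and 19 in the pairs, 24 over all, 5, 22, 10 and 26.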
